A study of Homo sapiens with 4 samples.

Results

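The G1 cyclins and the inhibitors of their kinases set the pace at which a cell leaves G1 and begins to copy its DNA. They were described here as 10 genes chosen by name for their role, of 61498 genes in the deposited tables: the D cyclins CCND1, CCND2 and CCND3, the E cyclins CCNE1 and CCNE2, the CIP/KIP inhibitors CDKN1A, CDKN1B and CDKN1C, and the INK4 inhibitors CDKN2C and CDKN2D. Each symbol matched 1 Ensembl gene. The cells were K562, an established human erythroleukemia line. Poly(A) RNA was sequenced from 2 libraries of untreated cells and from 2 libraries of cells kept with 50 µM hemin for 108 h, a treatment the study used to induce erythroid differentiation. Per the labels, this dose left proliferation as it was. Both conditions shared the line, the medium and the library kit, and no allele or transgene set them apart. Nothing in the labels says that the 2 libraries of a condition came from separate cultures, so the p-values measure the spread between these libraries, which may be technical.

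D cyclins are made in response to growth signals and activate CDK4 and CDK6, which phosphorylate the retinoblastoma protein and so free E2F factors. E2F factors switch on the E cyclins, which activate CDK2 at the entry to S phase. INK4 proteins bind CDK4 and CDK6 and keep D cyclins off them, whereas CIP/KIP proteins bind cyclin-CDK complexes and chiefly block CDK2. Maturing erythroid cells slow and then stop dividing, and these genes are among those that accompany that exit. K562 cells are known to have lost the INK4 genes CDKN2A and CDKN2B.

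None of the 10 genes was called higher after hemin and 3 were called lower. In counts scaled for library size, CDKN1A and CDKN1C, which encode the inhibitors p21 and p57, fell to about 0.471 and 0.623 of untreated values. The D cyclin CCND3 fell by 11.8% on this scale. The E cyclins, CDKN1B, CDKN2C, CDKN2D, CCND1 and CCND2 did not pass the test. Calls were made with edgeR's quasi-likelihood test on rounded expected counts, that is, the read numbers that RSEM estimates for each gene, at a Benjamini-Hochberg adjusted p under 0.05. Over the 14458 genes tested, 7.00% were called higher and 7.14% lower, and all 10 genes were among those tested. Scaling by library size alone moved the split over all genes from 1012 higher and 1033 lower to 729 and 1358, and the split of these genes to 0 and 4. At an unadjusted p under 0.05, 0 of the 10 were higher and 4 lower with edgeR, against 14.8% and 14.6% of all tested genes. The counts were 0 and 4 with DESeq2, against 9.03% and 8.00% of all genes, and 0 and 3 with limma on log2(TPM + 1), against 6.70% and 11.6%. The fitted log2 fold change was below 0 for 8 of the 10, with a median of -0.103, against 7357 of 14458 genes and a median of -0.0048 over all genes. Leaving out untreated replicate 1 left 0 of the 10 called lower, and leaving out any other library left 2 or 3.

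Per library, the expected counts added up to 7801824 and 7455447 in untreated cells and to 7513843 and 8241534 after hemin, so that 3 counts corresponded to 0.364 to 0.402 CPM, the unit of counts scaled to a common library size. The libraries bore the markers of the line. All 12 erythroid and K562 markers were above 3 counts in every library, and their summed level was 5948 and 6147 TPM, a level corrected for library size and transcript length, in untreated cells and 7466 and 6998 TPM after hemin. Of 12 such markers 3 rose and 1 fell, against 7.00% and 7.14% of all tested genes. Those that rose were the globins HBZ (log2 fold change 0.70, adjusted p = 0.00015) and HBE1 (0.41, adjusted p = 0.00044) and the transferrin receptor TFRC (0.23, adjusted p = 0.0067). ALAS2, which encodes the erythroid enzyme of heme synthesis, fell (-0.25, adjusted p = 0.025). The call of ALAS2 was lost when untreated replicate 1, untreated replicate 2 or hemin replicate 2 was left out, with adjusted p of 0.0917, 0.0958 and 0.135. Markers of other blood and stromal cells were at or below 3 counts for 10 or 11 of 15 genes in each library, with CD3E, MS4A1, MPO, ELANE, PF4 and PPBP at 0 in all 4. Their summed level spanned 50.3 to 53.8 TPM in untreated cells and 48.4 to 56.0 TPM after hemin. Nearly all of it came from EPCAM, an epithelial marker, which had 288 and 291 expected counts in untreated cells and 319 and 295 after hemin, and from the collagen COL1A2, which had 108 and 121 against 72 and 88. Neither was called, with a log2 fold change of 0.08 (adjusted p = 0.65) for EPCAM and of -0.53 (adjusted p = 0.051) for COL1A2. In bulk RNA, fewer cells that express a gene and less RNA of it per cell cannot be told apart.

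Upstream sequences are shown for the genes with a call that the RefSeq promoter table holds, CDKN1A and CCND3, and for CDKN1B, the CIP/KIP gene without a call, so that they can be read beside the values that follow. Each line gives 250 bases before a transcription start in GRCh38.p14, read 5′ to 3′ on the strand of the gene. Capitals mark the GC box GGGCGG on either strand, the motif bound by factors of the Sp family, and neighbouring matches may overlap. For CCND3, which has 3 starts in the table, the most upstream one is shown.
CDKN1A, chr6:36678464-36678713, plus strand: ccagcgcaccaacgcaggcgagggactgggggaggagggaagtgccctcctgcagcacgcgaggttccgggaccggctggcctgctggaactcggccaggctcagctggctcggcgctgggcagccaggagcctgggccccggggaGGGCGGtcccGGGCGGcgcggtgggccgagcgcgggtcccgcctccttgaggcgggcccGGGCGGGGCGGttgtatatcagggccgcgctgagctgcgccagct
CDKN1B, chr12:12717118-12717367, plus strand: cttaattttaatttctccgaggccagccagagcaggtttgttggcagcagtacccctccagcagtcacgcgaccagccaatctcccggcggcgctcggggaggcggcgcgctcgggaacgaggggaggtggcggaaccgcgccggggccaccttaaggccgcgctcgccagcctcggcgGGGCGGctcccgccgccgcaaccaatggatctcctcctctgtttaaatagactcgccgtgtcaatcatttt
CCND3, chr6:42048689-42048938, minus strand: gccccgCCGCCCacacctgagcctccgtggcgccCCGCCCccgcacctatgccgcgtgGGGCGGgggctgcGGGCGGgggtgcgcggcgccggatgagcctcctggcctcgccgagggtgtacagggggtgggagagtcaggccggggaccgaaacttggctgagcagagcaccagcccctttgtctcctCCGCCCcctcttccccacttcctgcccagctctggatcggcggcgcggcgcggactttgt

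The CDKN1A window held 4 GC boxes, the CDKN1B window 1 and the CCND3 window 5. The share of G and C was 76.4%, 64.4% and 74.4% in these windows, against a median of 58.0% over all 35116 promoters in the table. In all, 6 of the 10 genes had an entry, with 10 starts among them. A GC box was found in 8 of the 10 windows, against 42.6% of all promoters. The CCND3 windows not shown held 2 and 0 GC boxes. Among genes without a call, the CCNE1 window held 7, the CDKN2C windows 0, 5 and 1, and the CDKN2D window 2. CCNE1, CDKN2C and CDKN2D made up the rest of the matched genes, and CCND1, CCND2, CCNE2 and CDKN1C had no entry. An E box CACGTG was found in 2 of the 3 windows of CDKN2C and in 6.34% of all promoters. No window of these genes held the letters searched for E2F factors (TTTGGCGC or TTTCCCGC, in 1.93% of all promoters), STAT (TTCNNNGAA, 6.57%), CREB (TGACGTCA, 1.65%) or FOX factors (GTAAACA, 2.98%). The letters searched for GATA factors, which include the erythroid regulator GATA1, were in 9.17% of all promoters and likewise in no window of these genes. They were AGATAA. Both strands were read for each, and a match or its absence describes these letters in this window and no binding.

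The levels of the 10 genes spanned from 2.36 to 135 TPM in untreated cells. CCND3 was the highest in untreated cells (135 ± 0.686 TPM, mean ± SD, n = 2), followed by CCND2 (85.5 ± 1.18 TPM). CDKN1C (20.9 ± 1.92), CCNE1 (20.5 ± 1.96), CDKN1B (20.4 ± 5.32) and CDKN2C (18.9 ± 0.276 TPM) came next and were not tested against each other. Both CDKN1C values (22.26 and 19.55 TPM) lay above both CDKN2C values (19.12 and 18.73 TPM), and the other pairs of these genes overlapped. CCND1 (10.1 ± 1.21), CCNE2 (7.70 ± 3.07) and CDKN1A (6.87 ± 1.44 TPM) overlapped in part, and CDKN2D was the lowest (2.36 ± 0.191 TPM). After hemin the D cyclins CCND3 (122 ± 3.27 TPM) and CCND2 (74.4 ± 5.60 TPM) again led. CDKN1C, at 14.6 ± 2.51 TPM, then lay below CDKN1B at 21.8 ± 2.38 TPM in both libraries, and CDKN1A, at 2.98 ± 0.297 TPM, lay next to CDKN2D at 2.38 ± 0.163 TPM.

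**Figure D1:**
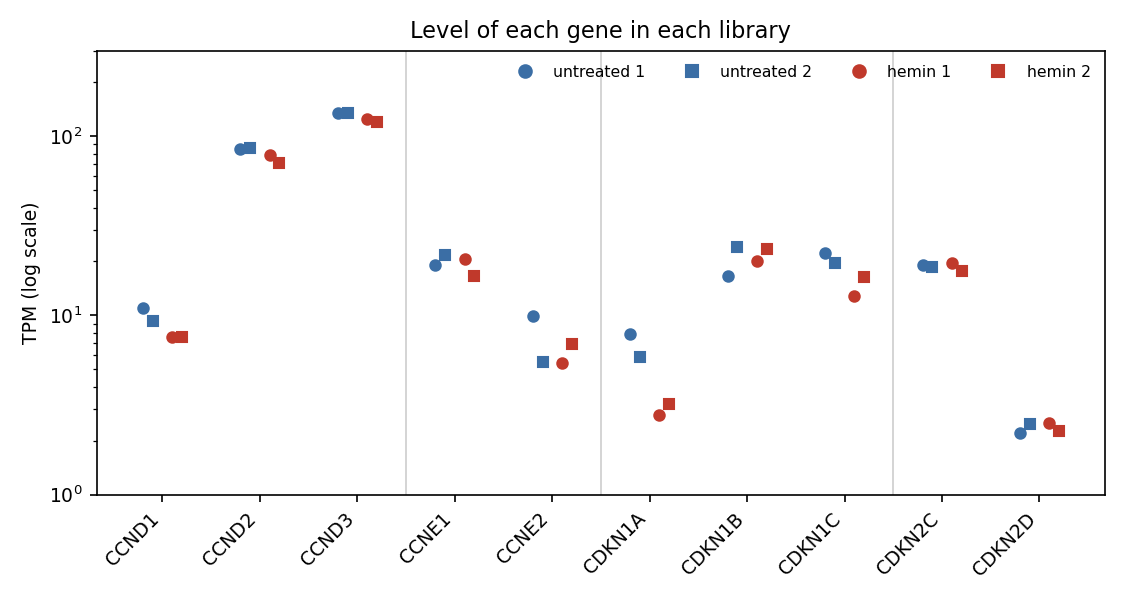
Level of each of the 10 genes in each library in TPM on a log scale, with untreated libraries in blue, hemin libraries in red, circles for replicate 1, squares for replicate 2, and vertical lines between the 4 families. CCND3 and CCND2 lie above all the others in every library, and the hemin points of CDKN1A (2.77 and 3.19 TPM) lie below its untreated points (7.89 and 5.85 TPM).

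Among the D cyclins, CCND3 (ENSG00000112576, GRCh38 chr6:41934934-42050357, minus strand) had 1320 and 1294 expected counts in untreated cells and 1117 and 1202 after hemin. Scaled for library size these were 167 and 173 CPM against 151 and 149, and the conditions did not overlap. The log2 fold change was -0.18 ± 0.0457 (SE, 95% interval -0.28 to -0.08, edgeR adjusted p = 0.0297). The fold stayed between -0.22 and -0.14 in the 13 alternative analyses, but the call was kept in 6 of them, with adjusted p from 0.0117 to 0.291. Leaving out untreated replicate 1, untreated replicate 2, hemin replicate 1 or hemin replicate 2 gave adjusted p of 0.0637, 0.121, 0.0686 and 0.0987, and DESeq2 gave 0.105.

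CCND2 (ENSG00000118971, chr12:4269771-4305353, plus strand) had 2989 and 2845 expected counts in untreated cells and 2614 and 2676 after hemin. Its scaled values, 378 and 380 CPM against 352 and 332, did not overlap either. The log2 fold change was -0.15 ± 0.0436 (95% interval -0.25 to -0.05, edgeR adjusted p = 0.0516), just short of a call. It was called under 4 of 13 alternatives, including the one without hemin replicate 1 (-0.19, adjusted p = 0.0289), with adjusted p from 0.0214 to 0.275 over all of them. The deposited TPM of CCND2 lay above the upper bound of RSEM's own credible interval in all 4 libraries. It was 84.62 against a bound of 82.1 and 86.29 against 84.6 in untreated cells. After hemin it was 78.4 against 76.8 and 70.48 against 68.9. The reason for this offset was not tested, and the TPM of CCND2 should be read with it. Other genes overlapped it in the annotation, among them the antisense CCND2-AS1, which had 7 and 2 expected counts in untreated cells and 4 and 3 after hemin.

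CCND1 (ENSG00000110092, chr11:69641156-69654474, plus strand), the D cyclin best known as an oncogene, had 143 and 122 expected counts in untreated cells and 135 and 143 after hemin. The scaled counts of the conditions overlapped, and the log2 fold change was 0.06 ± 0.12 (95% interval -0.20 to 0.33, edgeR adjusted p = 0.787). On the TPM scale the same gene read 10.99 and 9.28 in untreated cells and 7.55 and 7.60 after hemin, a log2 ratio of means of -0.42 with no overlap. The scales part because the mean transcript length that RSEM assigned, which is weighted by the abundance of each transcript, was 2372 and 2469 bases in untreated cells and 3359 and 3226 bases after hemin. This length was 1.36-fold higher after hemin, and 3.56% of the tested genes shifted by more in either direction.

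The length readout was taken up after its values were seen, and it is given without a test. It did not overlap between conditions in 5 of the 10 genes (CCND1, CCND3, CCNE1, CDKN1C and CDKN2C), against 29.5% of all tested genes, and in 1 of the 10, CCND1, it also differed by at least 1.2-fold, against 7.09%. CDKN1C came next among those 5, with 1649 and 1683 bases in untreated cells and 1453 and 1462 after hemin. CCND1 has 6 annotated transcripts of 430, 476, 553, 568, 920 and 4238 bases. If each length is read as a mixture of the 4238-base transcript with 1 shorter transcript, the long form made up 43.8% to 51.0% and 46.7% to 53.6% of CCND1 molecules in the untreated libraries and 73.5% to 76.9% and 69.5% to 73.4% in the hemin libraries, where each range covers the choice of the shorter transcript. The reads behind the short forms were few, 11.5 to 30.2 and 8.90 to 23.3 in the untreated libraries and 3.59 to 9.41 and 4.58 to 12.0 in the hemin libraries. These numbers use the effective lengths in the deposited tables, which were shorter than the transcript lengths by a median of 48.4 bases over tested genes, less than the stated mean fragment length would take off. A larger reduction would leave fewer reads on the short forms and change their TPM, and this was not tested. LTO1, which overlaps CCND1 on the other strand, had 160 and 162 expected counts in untreated cells and 150 and 142 after hemin, and its part in the reads given to CCND1 was not tested.

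**Figure D2:**
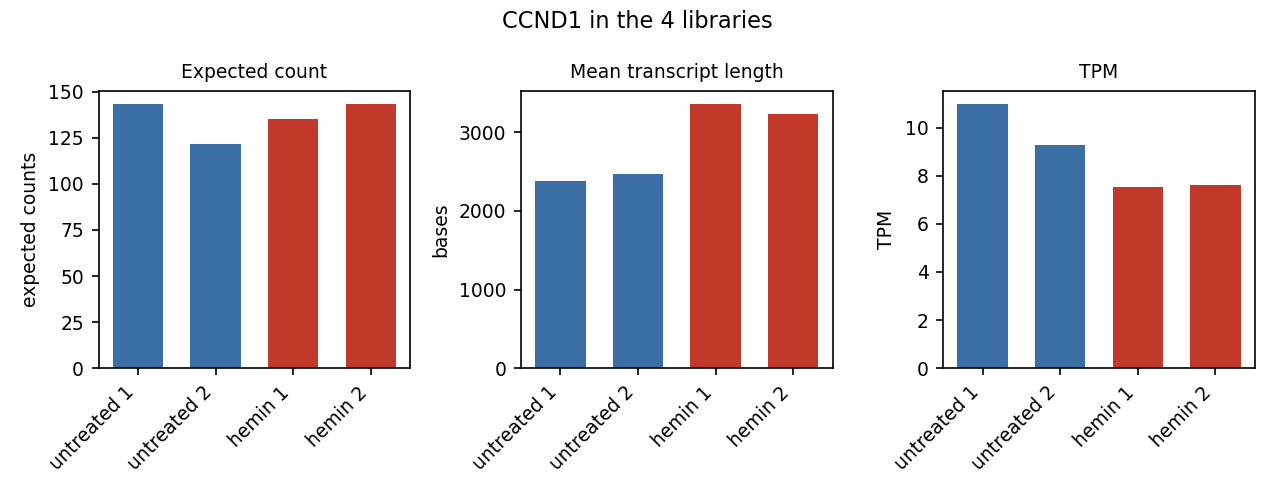
CCND1 in the 4 libraries, shown by expected counts, by RSEM mean transcript length in bases and by TPM, with untreated libraries in blue and hemin libraries in red, and each axis starting at 0. The counts overlap between conditions, whereas both hemin lengths (3359 and 3226 bases) exceed both untreated lengths and both hemin TPM values (7.55 and 7.60) lie below both untreated ones.

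As a family the D cyclins summed to 231 and 230 TPM in untreated cells and to 210 and 198 TPM after hemin. CCND3 gave 58.5% and 58.4% of the family in untreated cells and 59.1% and 60.5% after hemin, CCND2 between 35.7% and 37.6% in the 4 libraries, and CCND1 4.77% and 4.04% in untreated cells and 3.59% and 3.85% after hemin. These shares use TPM, so that the length shift of CCND1 is part of them.

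Neither E cyclin passed the test. CCNE1 (ENSG00000105173, chr19:29811991-29824312, plus strand, with no overlapping gene) had 149 and 156 expected counts in untreated cells and 162 and 139 after hemin, with overlapping scaled values. Its log2 fold change was -0.03 ± 0.14 (95% interval -0.33 to 0.28, edgeR adjusted p = 0.929). CCNE2 (ENSG00000175305, chr8:94879770-94896678, minus strand) had 81 and 47 expected counts in untreated cells and 48 and 41 after hemin. Untreated replicate 1 stood apart from the other 3 libraries for CCNE2, with 10.2 scaled CPM against 6.28 in untreated replicate 2 and 6.47 and 5.11 after hemin. The log2 fold change of CCNE2 was -0.52 ± 0.27 (95% interval -1.13 to 0.08, edgeR adjusted p = 0.237) and ran from -0.83 to -0.12 when single libraries were left out. Its pooled counts were 128 in untreated cells and 89 after hemin. Their ratio scaled for library size was 0.691 (exact 95% interval 0.522 to 0.913, counting error only). That interval leaves out the spread between libraries and RSEM's uncertainty in assigning reads. The posterior SD of the CCNE2 count was 6.5% to 13.4% of the count. INTS8, a subunit of the Integrator complex whose gene overlaps CCNE2 on the other strand, was called lower (688 and 611 counts against 471 and 590, log2 fold change -0.30, adjusted p = 0.030), a call lost without untreated replicate 1, untreated replicate 2 or hemin replicate 1 (adjusted p of 0.153, 0.0625 and 0.127). The stated counting options name no strand, so reads in a shared stretch may not have been told apart. Summed, the E cyclins stood at 28.9 and 27.4 TPM in untreated cells and 26.0 and 23.6 TPM after hemin.

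**Figure D3:**
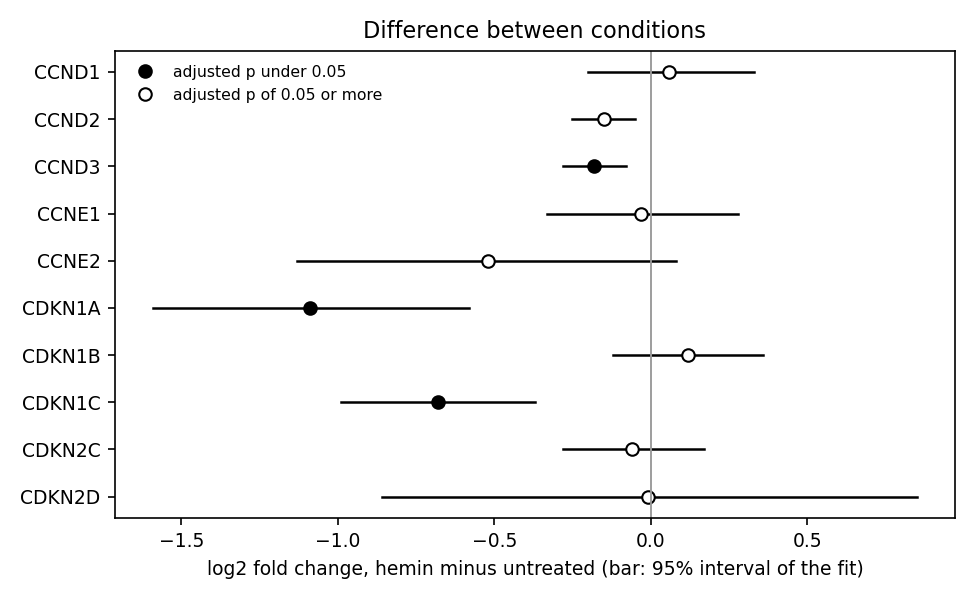
Log2 fold change of each of the 10 genes (hemin minus untreated) with the 95% interval of the edgeR fit, where filled points passed an adjusted p of 0.05. CDKN1A (-1.09), CDKN1C (-0.68) and CCND3 (-0.18) are filled and lie left of 0, and the interval of CDKN2D (-0.86 to 0.85) is the widest of the 10.

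Of the 3 CIP/KIP inhibitors, CDKN1A and CDKN1C were called lower. CDKN1A (ENSG00000124762, chr6:36676460-36687337, plus strand), whose product p21 blocks CDK2 and binds the replication clamp PCNA, had 83 and 61 expected counts in untreated cells and 32 and 36 after hemin. In scaled CPM these were 10.5 and 8.15 against 4.32 and 4.46, and every hemin value lay below every untreated one. The log2 fold change was -1.09 ± 0.22 (95% interval -1.59 to -0.58, edgeR adjusted p = 0.0131), a scaled count 52.9% lower. On the TPM scale the log2 ratio of means was -1.2. From the pooled counts, 144 in untreated cells and 68 after hemin, the ratio scaled for library size was 0.470 (exact 95% interval 0.347 to 0.631), an interval that covers counting error only. The call was kept in 10 of 13 alternatives and lost without untreated replicate 1 (-0.89, adjusted p = 0.0932) and with limma on either TPM scale, with adjusted p from 0.000324 to 0.13 over all of them. The TPM of CDKN1A in hemin replicate 1, 2.77, lay below RSEM's own credible interval of 2.88 to 6.5. Both hemin intervals (upper bounds 6.5 and 6.53 TPM) overlapped that of untreated replicate 2, which was 5.31 to 9.84 TPM. DINOL, a noncoding gene antisense to CDKN1A, had 0 counts in all 4 libraries.

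CDKN1C (ENSG00000129757, chr11:2883213-2885775, minus strand) encodes p57, the third inhibitor of the family and the product of an imprinted gene. It had 200 and 173 expected counts in untreated cells and 97 and 137 after hemin, or 25.3 and 23.1 scaled CPM against 13.1 and 17.0. The conditions did not overlap, although the hemin libraries differed more from each other than the untreated ones. On the TPM scale the log2 ratio of means was -0.52, with the RSEM mean transcript length at 0.875 of its untreated value. On the count scale the log2 fold change was -0.68 ± 0.14 (95% interval -0.99 to -0.37, edgeR adjusted p = 0.0117), a scaled count 37.7% lower. This call too was kept in 10 of 13 alternatives and lost without untreated replicate 1 (-0.61, adjusted p = 0.0766) and with limma (-0.50 and -0.53), with adjusted p from 2.5e-05 to 0.207 over all of them.

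CDKN1B (ENSG00000111276, chr12:12685498-12722369, plus strand), which encodes p27, had 210 and 230 expected counts in untreated cells and 214 and 267 after hemin. The values overlapped, and the log2 fold change was 0.12 ± 0.11 (95% interval -0.12 to 0.36, edgeR adjusted p = 0.519). Of the CIP/KIP sum, 46.7 and 49.5 TPM in untreated cells and 35.7 and 43.0 TPM after hemin, CDKN1B made up 35.5% and 48.7% in untreated cells and 56.5% and 54.7% after hemin. CDKN1A made up 16.9% and 11.8% in untreated cells and 7.76% and 7.41% after hemin. CDKN1C made up 47.6% and 39.5% in untreated cells and 35.8% and 37.9% after hemin. None of these shares overlapped between conditions, and they were not tested. With 2 against 2 libraries, an exact permutation test of such a separation cannot go below 0.333. The shares of a library add up to the whole, so they are not separate results, and CDKN1B gained share without a call of its own. CDKN1B was the largest part in both hemin libraries and in untreated replicate 2, and CDKN1C in untreated replicate 1.

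**Figure D4:**
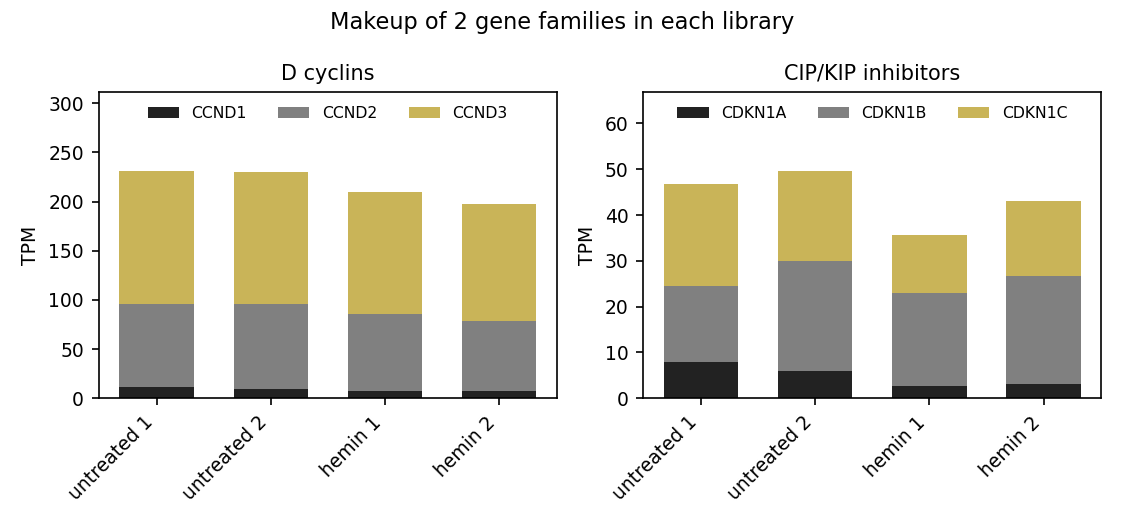
Summed TPM of the D cyclins (left) and of the CIP/KIP inhibitors (right) in each library, stacked by gene, with both axes starting at 0. CCND3 is the largest D cyclin segment in every library, and in both hemin libraries CDKN1B (56.5% and 54.7%) is the largest CIP/KIP segment.

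The INK4 inhibitors showed no call. CDKN2C (ENSG00000123080, chr1:50960745-50974634, plus strand), which encodes p18, had 191 and 190 expected counts in untreated cells and 185 and 183 after hemin. Its log2 fold change was -0.06 ± 0.0995 (95% interval -0.28 to 0.17, edgeR adjusted p = 0.760). CDKN2D (ENSG00000129355, chr19:10566460-10569059, minus strand), which encodes p19, had 15 and 14 expected counts in untreated cells and again 15 and 14 after hemin. At this depth the ratio of its pooled counts was 0.994 (exact 95% interval 0.574 to 1.72), a wide interval that covers counting error only. CDKN2C made up 88.3% to 89.6% of the summed TPM of both genes. CDKN2A and CDKN2B, the other INK4 genes, had 0 counts in all 4 libraries.

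The kinases that these cyclins drive were described from a list of 11 CDK partners and activators, of which 10 were tested. Of these 4 rose and 0 fell, against 7.00% and 7.14% of all tested genes, with a median log2 fold change of 0.227. CDK7, the kinase that activates other CDKs, rose from 297 and 295 to 375 and 407 expected counts (log2 fold change 0.39, adjusted p = 0.0089). CDC25A, a phosphatase that removes inhibitory phosphates from CDK2, rose by 0.34 on the log2 scale (adjusted p = 0.013), and CDK6 by 0.22 (adjusted p = 0.016). CDK4, named after its values were seen, rose from 658 and 591 to 715 and 779 expected counts (0.25, adjusted p = 0.019). CDK2, named for its role, had a log2 fold change of 0.03 (adjusted p = 0.82) and changed sign under 4 alternatives. CDK4 and CDK6 lost their calls without untreated replicate 2 or hemin replicate 2 (adjusted p from 0.0524 to 0.0943), and CDK7 and CDC25A without untreated replicate 1 (0.0609 and 0.0759). Without either untreated replicate the list had 2 calls, and DESeq2 and limma called 3 and 0 of its genes higher. With edgeR at an unadjusted p under 0.05, 6 of its genes were higher and 0 lower, against 14.8% and 14.6% of all tested genes. At an adjusted p under 0.05, DESeq2 and limma called 0 lower, against 505 and 33 (limma with pseudocount 1) of all 14458 genes.

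All 16 genes of the retinoblastoma and E2F list were tested. Of these 4 rose and 1 fell, against 7.00% and 7.14% of all tested genes, with a median log2 fold change of 0.139. RBBP4, a histone chaperone found with retinoblastoma family proteins, rose by 0.22 on the log2 scale (adjusted p = 0.0071), the repressive factor E2F4 by 0.32 (adjusted p = 0.016) and its dimer partner TFDP2 by 0.22 (adjusted p = 0.024). RBL1, which encodes p107 and was named after its values were seen, rose by 0.37 (adjusted p = 0.035), whereas RBL2, which encodes the related p130 of resting cells, fell from 762 and 705 to 543 and 615 expected counts (-0.35, adjusted p = 0.0047). RB1 itself, named for its role, had a log2 fold change of 0.21 (adjusted p = 0.13). The call of RBL1 was kept in 4 of 13 alternatives, with adjusted p from 0.0185 to 0.626. It was lost with DESeq2, with limma, with library size only, and when any single library was left out (adjusted p from 0.071 to 0.156). The call of TFDP2 was lost with DESeq2 (adjusted p = 0.0892), without hemin replicate 2 and without either untreated replicate. It was also lost with limma, where the log2 fold change of TFDP2 was 0.01 on both TPM scales. The call of E2F4 was lost with limma and without hemin replicate 2 or either untreated replicate. Over the 13 alternatives the log2 fold change of E2F4 ran from 0.24 to 0.39, and its call was kept in 8. Leaving out untreated replicate 1, untreated replicate 2 or hemin replicate 2 left 1 gene called higher, and leaving out hemin replicate 1 left 3. The call of RBL2 was kept in 11 of 13 alternatives, all but limma (adjusted p up to 0.552).

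All 20 genes for the turnover of G1 cyclins and inhibitors were tested. Against 7.00% and 7.14% of all tested genes, 4 of these rose and 0 fell, with a median log2 fold change of 0.061. They were the cullin CUL1 (0.28, adjusted p = 0.0089), PCNA (0.24, adjusted p = 0.012), the ligase adaptor DDB1 (0.18, adjusted p = 0.021) and CUL4A (0.21, adjusted p = 0.031), the last named after its values were seen. PCNA, DDB1 and CUL4A belong to the route by which p21 is degraded in S phase. DTL (0.10, edgeR adjusted p = 0.3) and CUL4B (-0.05, edgeR adjusted p = 0.47) of the same list, named after their values were seen, were not called. Degradation of p21 was not measured. Leaving out untreated replicate 1 left 0 of the 4, and leaving out hemin replicate 2 left 2. CUL4A lost its call when any single library was left out, with adjusted p from 0.057 to 0.121. With edgeR at an unadjusted p under 0.05, 6 genes of the list were higher and 1 lower, against 14.8% and 14.6% of all tested genes. At an adjusted p under 0.05, DESeq2 called 3 higher and 0 lower, and limma called 0 in either direction.

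S phase genes are the best known targets of E2F factors. Of 20 tested, 12 rose and 0 fell, against 7.00% and 7.14% of all tested genes. In this list 19 were fitted above 0, with a median log2 fold change of 0.245. The replicative helicase subunits MCM5 (959 and 839 against 1402 and 1558 expected counts, log2 fold change 0.71, adjusted p = 0.00012), MCM7 (0.37, adjusted p = 0.00073) and MCM4 (0.33, adjusted p = 0.0019) had the smallest p. MCM5 was past the threshold in all 13 alternatives. Leaving out untreated replicate 1 gave 6 calls, leaving out untreated replicate 2 or hemin replicate 2 gave 8, and DESeq2 and limma called 8 and 1. With edgeR at an unadjusted p under 0.05, 16 were higher and 0 lower, against 14.8% and 14.6% of all tested genes. At an adjusted p under 0.05, DESeq2 and limma called 0 lower, against 505 and 33 (limma with pseudocount 1) of all 14458 genes. Of 20 mitosis genes, 19 were tested, 1 rose (CENPF, a kinetochore protein, 0.20, adjusted p = 0.029) and 1 fell (the kinase AURKB, -0.39, adjusted p = 0.034), with a median of -0.02. Both calls were lost without untreated replicate 1 or untreated replicate 2, that of CENPF also without hemin replicate 2 and that of AURKB also without hemin replicate 1.

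Among 18 other cyclins, 16 were tested, and 0 rose and 1 fell, against 7.00% and 7.14% of all tested genes. The 1 that fell was CCNL2, a cyclin tied to splicing (-0.37, adjusted p = 0.0009). With edgeR at an unadjusted p under 0.05, 4 of these cyclins were higher and 2 lower, against 14.8% and 14.6% of all tested genes. At an adjusted p under 0.05, DESeq2 called 0 higher and 1 lower, and limma called 0. CCNA1 had 0 counts in all 4 libraries.

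**Figure D5:**
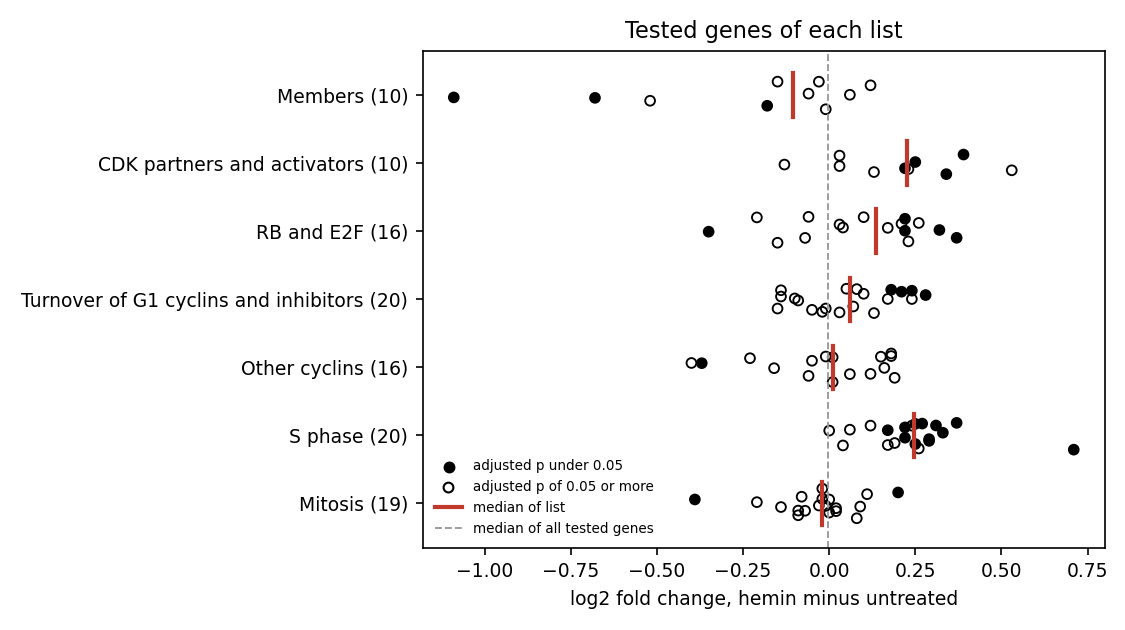
Log2 fold change (hemin minus untreated) of the tested genes of each list, with the number tested in brackets, filled points for an adjusted p under 0.05, a red bar at the median of the list and a dashed line at the median of all tested genes. The first row, titled members, holds the 10 G1 cyclins and inhibitors, with a median of -0.103, and the S phase row has a median of 0.245.

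Within 50 kb of the 10 genes the tables held 53 other genes, of which 20 were tested. Of these 20, 1 was called higher and 3 lower, against 7.00% and 7.14% of all tested genes. The gene called higher was KRI1 beside CDKN2D (0.25, adjusted p = 0.022). The 3 called lower were TP53INP1 (254 and 237 against 145 and 149 expected counts, -0.75, adjusted p = 0.0013) and INTS8 by CCNE2, and SLC44A2 beside CDKN2D (-0.32, adjusted p = 0.0070). KRI1 lost its call when untreated replicate 1, untreated replicate 2 or hemin replicate 1 was left out, with adjusted p from 0.0766 to 0.0919, and SLC44A2 changed sign with limma. No neighbour of CDKN1A was tested. Beside CDKN1C, the transporter gene SLC22A18, which lies in the same imprinted region, had 64 and 70 expected counts in untreated cells and 44 and 38 after hemin (-0.71, adjusted p = 0.057), and without hemin replicate 1 its adjusted p was 0.0454. Its adjusted p ran from 0.0283 to 0.413 over the 13 alternatives.

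CDKN1C had the smallest p of the 10 genes, and the tested genes nearest to its profile over the 4 libraries were sought by the Euclidean distance of log2 CPM centred on each gene's mean. Among the 3 nearest were NUPR1 (distance 0.0219) and PSPN (0.0565). NUPR1 had 20 and 17 against 9 and 13 and PSPN 30 and 25 against 13 and 19 expected counts, and neither passed the test (adjusted p of 0.24 and 0.15). With 4 libraries, likeness of profile is a description.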

How the data were processed

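The libraries, 2 untreated and 2 hemin, were made from poly(A) RNA and read to 50 bases. The authors trimmed reads with Trimmomatic 0.39 and quantified genes with RSEM 1.3.1 and STAR 2.7.5c on GRCh38 with Ensembl release 106. The authors deposited per library expected counts, TPM, and posterior means, and the deposited signal columns hold the lower and upper bounds of the credible interval of TPM. Deposited FPKM tables and the authors' own comparison were not used.

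Expected counts were rounded, genes were kept by edgeR's filterByExpr, and edgeR 4.0.16 (R 4.3.3, TMM scaling, quasi-likelihood test, Benjamini-Hochberg adjustment over 14458 genes) gave the main results. Alternatives were other scalings and filters, DESeq2 1.42.0, limma 3.58.1 with trend on log2(TPM + 1) or log2(TPM + 0.1), a replicate block, leaving out each library, and RSEM's posterior means in place of expected counts. Fold changes from limma are on the log2(TPM + pseudocount) scale, which understates changes of low genes. With 2 against 2 libraries an exact permutation test cannot go below 0.333, so none was used for single genes. Scripts were tested on simulated data. Gene positions came from GENCODE 44, which holds 99.8% of the gene IDs, and upstream sequence from RefSeq (GRCh38.p14).

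Genes named were the 10 G1 genes; from each list up to 3 called genes per direction with the smallest p and genes at 0 in all libraries; up to 5 neighbours within 50 kb with the smallest p; and the 3 nearest profiles. CDK4, RBL1, CUL4A, CDK2, RB1, DTL and CUL4B were added. Some genes that this rule named, and 1 of the lists, are not reported here. The genes and lists were chosen with earlier results of these data known.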

Additional observations from a re-analysis of the deposited data

How the results depend on the processing

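Of 129 log2 fold changes of the 10 genes over 13 alternatives, 100 kept direction and side of the threshold, 13 lost the call, 4 gained it and 12 changed sign. Genes of the 10 called higher were 0 in each alternative. Those called lower, 3 in the main analysis, were 0 with limma on both TPM scales and 0 to 3 without single libraries, and the cause was not tested. Genes of the 6 pathway lists called higher, 25 in the main analysis, were 1 and 1 with limma and 9 to 22 without single libraries. Those called lower, 3, were 0 and 0 with limma and 2 to 4 without single libraries. The sign changes were all of genes without a call except SLC44A2. Leaving out single libraries, CCND1 ran from -0.01 to 0.14, CCNE1 from -0.20 to 0.14, CDKN2C from -0.12 to 0.01, CDKN2D from -0.11 to 0.10 and CDK2 from -0.04 to 0.10. With limma, CCND1 was -0.37 and -0.41, where TPM also carry its transcript length, CDKN2D 0.01 and 0.02, and CDK2 -0.08 and -0.09. CDKN2D was 0.00011 with DESeq2 and 0.01 without a filter, and CDK2 was -0.00466 with library size only. SLC44A2 was 0.05 and 0.05 with limma. Over all genes, DESeq2 called 589 higher and 505 lower, limma 14 and 33 (pseudocount 1) or 15 and 34 (pseudocount 0.1), and leaving out untreated replicate 1 left 451 and 487 and untreated replicate 2 521 and 530. With a replicate block, 0 of the 10 genes were called higher and 3 lower, and 855 and 886 over all genes. Over genes, the deviations of libraries with the same number from their condition means had a correlation of 0.00473. The value is the same for both pairs because, with 2 libraries a condition, each deviation is the negative of the other. It does not test for a batch shared by number, and the main fit used no pairing. Of the genes named, RBL1 lost its call with the block (adjusted p = 0.0501). Depth limits CDKN2D most, with 29 pooled counts in each condition.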
